A study of Homo sapiens with 30 samples.

Results

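The response of PEER to decitabine was set against that of Loucy, gene by gene, as a difference of differences: decitabine minus DMSO in PEER, minus decitabine minus DMSO in Loucy. The members were the 12 libraries of these 2 lines, of 30 libraries in the series, and 11 of them entered the main fit. Both lines were grown from T-cell acute lymphoblastic leukaemia, a cancer of immature T cells, and Loucy is widely used as a model of its early T-cell precursor form. The groups were PEER with 1 µM decitabine for 48 h, PEER with the vehicle dimethyl sulfoxide (DMSO), Loucy with the same decitabine treatment and Loucy with DMSO, each of 3 libraries, and 1 PEER DMSO library was left out as mixed with another line. The labels name no genetic change between the groups of a line. Each side of the comparison is a single cell line, so a difference between PEER and Loucy is one between these cultures and not between kinds of leukaemia.

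Decitabine is a cytidine analogue that is built into newly copied DNA, where it traps DNA methyltransferases, so that methylation of CG dinucleotides is lost as cells divide. Genes held silent by methylated promoters can then be transcribed, whether or not they belong to the cell's own lineage. Myeloid genes encode the transcription factors, granule enzymes and surface receptors of granulocytes, monocytes and mast cells. Cytokines are the secreted or membrane-bound signals of immune cells, which act through receptors and, for many of them, through JAK kinases and STAT transcription factors.

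PEER libraries held 2.82 M to 10.6 M reads on the strand of a gene and Loucy libraries 10.2 M to 15.4 M, so that small changes were easier to call in Loucy. The PEER DMSO library left out is replicate 2 by its title. It held genes restricted to another line of the series, MOLT-16, at a median of 6.48% of their level there, with 10 of 10 such genes detected, and genes restricted to TALL-1 at 2.32%. The other 11 libraries held foreign genes at medians of at most 1.29%. All 10 T-lineage markers were detected in all 4 groups. Their summed level went from 2382 to 2433 CPM (read counts scaled to the size of the library) under DMSO to 1966 to 2113 CPM under decitabine in PEER, and from 1213 to 1288 CPM to 1025 to 1088 CPM in Loucy, with no overlap of treatments in either line. Summed myeloid markers, 11 genes, went from 4.61 to 8.88 CPM under DMSO to 43.6 to 55.3 CPM under decitabine in PEER and from 20.3 to 24.3 CPM to 64.3 to 67.1 CPM in Loucy, while the neutrophil elastase gene ELANE was at 0 in all 4 groups. Summed stromal markers (5 genes) went from a mean of 5.55 CPM under DMSO to 11.1 to 19.2 CPM under decitabine in PEER and from a mean of 1.11 CPM to 12.8 to 14.4 CPM in Loucy, with no overlap. Epithelial markers (5 genes) went from 2.57 to 3.54 CPM to 8.64 to 12.4 CPM in PEER and stayed at 0 to 0.35 CPM in Loucy. B-cell markers (6 genes) went from 28.8 to 33.7 CPM to 44.4 to 51.5 CPM in PEER and stood at 84.1 to 113 CPM in Loucy, where the treatments overlapped. NK markers (5 genes, at most 5.44 CPM in sum) and erythroid markers (6 genes, at most 2.96 CPM) were higher under decitabine in both lines with no overlap. The part of these shifts in the results was not tested. In these bulk samples more cells expressing a gene and more RNA of it per cell cannot be told apart.

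The responses of the lines overlapped in part and differed in strength gene by gene. Of 15801 genes tested, 870 rose in PEER (5.51%) and 238 fell (1.51%), while 2551 rose in Loucy (16.1%) and 1487 fell (9.41%), by edgeR's quasi-likelihood test at an adjusted p under 0.05. Rises called in both lines numbered 475 (3.01% of genes tested), which is 54.6% of the PEER rises and 18.6% of the Loucy rises. Falls called in both numbered 117 (0.74%), 49.2% of the PEER falls and 7.87% of the Loucy falls. The difference of the responses was called for 748 genes (4.73%): 338 positive (2.14%), where the PEER response lay above that of Loucy, and 410 negative (2.59%), where it lay below. A positive difference can come from either line: 198 of the 338 genes were called higher in PEER and 143 were called lower in Loucy. Of the 410, 384 were called higher in Loucy and 38 lower in PEER.

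A rise called in 1 line alone was not always shown to differ between them. Of the 395 PEER rises not called in Loucy, the difference itself was called for 172, and of the 2076 Loucy rises not called in PEER for 337. Of the 475 shared rises, 402 had no called difference (2.54% of genes tested), 26 were larger rises in PEER and 47 larger rises in Loucy. The 95% interval of a difference had a median half-width of 0.54 on the log2 scale over the 13392 genes with more than 3 reads in the DMSO group of each line. Differences smaller than this were mostly not detectable. The interval is not adjusted over all genes as the calls are, so larger differences could also go uncalled. With Loucy thinned to the mean PEER depth, 1852 genes rose in Loucy and 430 rose in both.

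The level under DMSO went with the sign of the difference. Of the 410 negative differences, 395 were of genes with the lower DMSO level in Loucy, and of the 338 positive ones, 302 were of genes lower in PEER, where 51.7% of all genes tested were lower in PEER. The DMSO libraries enter both quantities, so this is a description. Across the 13392 genes with more than 3 DMSO reads in each line, the responses had a Pearson r of 0.35 and a Spearman rho of 0.32, over genes that are not independent replicates.

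**Figure D1:**
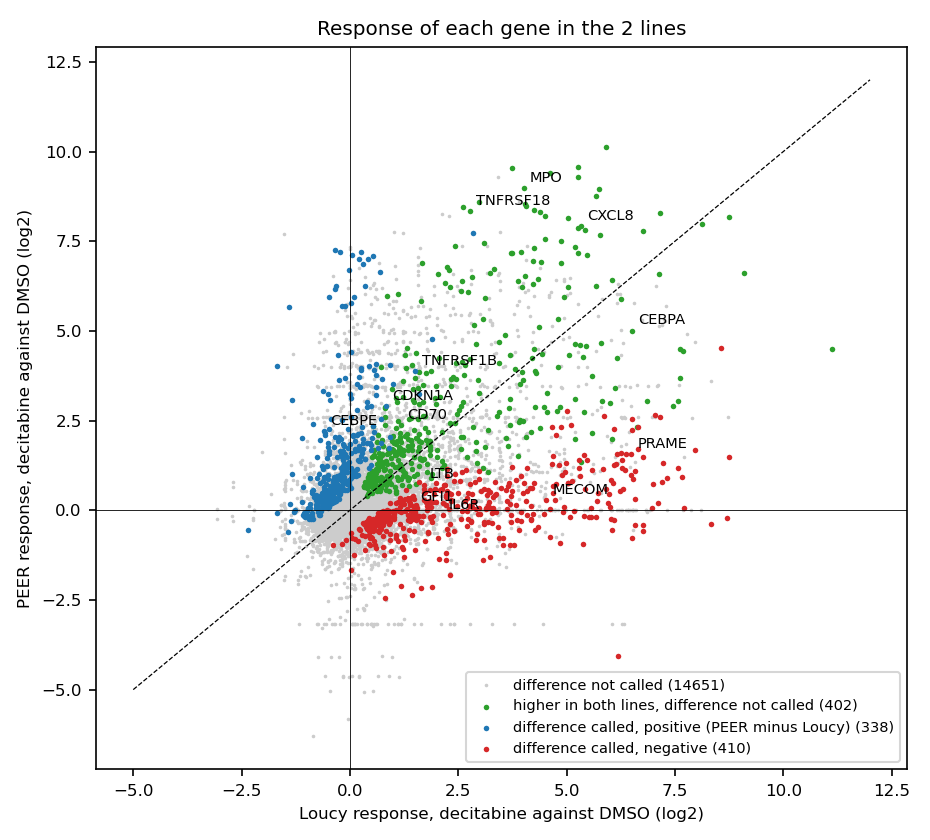
Response of each of the 15801 genes tested in Loucy (x axis) and in PEER (y axis), both as log2 of decitabine against DMSO, with the line of equal response dashed. Green points are the 402 genes higher in both lines with no called difference, blue points the 338 with a positive difference (PEER minus Loucy) and red points the 410 with a negative one, and many red points lie along a PEER response near 0.

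The genes with the strongest rise in both lines came from several functions. By the rule for shared genes these were PAGE5, a cancer-testis antigen, CDKN1C, a cyclin-dependent kinase inhibitor, GPRC5C, EMP1, PHLDA2, TRH, the precursor of thyrotropin-releasing hormone, GPER1, MPO, DEPP1 and S100P. With PEER DMSO replicate 2 in the fit the PEER rise of S100P was lost (5.91 to 1.52 on the log2 scale, adjusted p = 0.252). CDKN1C was at 0.18 and 0 CPM in the PEER DMSO libraries and at 6.17, 7.39 and 7.98 CPM with decitabine. In Loucy it was at 0.73, 0.38 and 0.52 CPM and then at 17.5, 16.3 and 16.6 CPM. All decitabine libraries of both lines stood above all DMSO libraries, and the read ratio was 67.0 in PEER (1 DMSO read, 95% counting interval 11.8 to 2669) and 31.2 in Loucy.

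Others of this group reached a like level from unlike starts. TRH was at 0.89 and 1.64 CPM in PEER DMSO and 28.3, 25.7 and 31.2 CPM with decitabine. In Loucy it had 2 reads over the 3 DMSO libraries and stood at 25.9, 19.9 and 21.6 CPM with decitabine. The log2 rise was 4.53 ± 0.34 (SE) in PEER, and the difference was called (adjusted p = 0.00443) with the Loucy ratio at 479 (95% counting interval 132 to 3965), although the decitabine libraries of the lines overlapped. The TRH difference was lost without PEER DMSO replicate 3. The 5 shared falls named by the same rule were HIST1H1D, a linker histone of a multigene family, ADGRA3, MANEAL, GXYLT2 and STT3B, a catalytic subunit of the N-glycan transferase. STT3B fell from 1359 and 1411 CPM to 791, 783 and 732 CPM in PEER and from 1142, 1445 and 1012 CPM to 502, 588 and 518 CPM in Loucy, log2 changes of -0.85 ± 0.13 and -1.16 ± 0.12 with no called difference (adjusted p = 0.433). With PEER DMSO replicate 2 in the fit, the PEER falls of STT3B (-0.625, adjusted p = 0.0584) and HIST1H1D (adjusted p = 0.227) were lost. The PEER fall of ADGRA3 was kept in 2 of 11 fits that left out 1 library, and those of HIST1H1D and MANEAL in 7.

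The largest differences were of genes silent in 1 line and active in the other. The 10 named for PEER (FAM131B, KCNQ1, GRAMD2A, OXT, NNMT, EPHB1, HES7, CLDN5, ZBTB46 and ARHGEF40) had 0 reads in both PEER DMSO libraries and were active in Loucy without the drug. KCNQ1, a voltage-gated potassium channel, went from 0 to 1.54, 3.55 and 0.73 CPM in PEER, at least 6.05-fold higher, and stood at 62.3, 73.8 and 57.5 CPM under DMSO and 50.9, 55.4 and 58.0 CPM under decitabine in Loucy. CLDN5, a claudin of tight junctions, went from 0 to 0.62, 1.18 and 1.45 CPM in PEER against 37.2 to 66.8 CPM in all Loucy libraries. In all 10 the decitabine level of PEER stayed below that of Loucy, and the difference of these levels was called each time. With PEER DMSO replicate 2 in the fit the differences of KCNQ1, GRAMD2A, EPHB1, HES7, ZBTB46 and ARHGEF40 were lost, and that library held 3.46 CPM of KCNQ1. Without PEER DMSO replicate 1, 9 of the 10 differences were lost, all but that of FAM131B.

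The genes named for Loucy were ANGPT2, EGFL7, DDIT4L, RUNX1T1, FBLN2, NFIA, TNS4, PRDM8 and KCNK17. EGFL7, a secreted protein of blood vessels, had 0 reads in all 3 Loucy DMSO libraries and rose to 3.75, 4.30 and 4.04 CPM, at least 57.6-fold. In PEER it stood at 10.5 and 4.21 CPM and at 6.17, 3.84 and 7.26 CPM with decitabine. NFIA, a transcription factor of the nuclear factor I family, had 1 read in Loucy DMSO and reached 5.82, 4.56 and 4.39 CPM (ratio 211, 95% counting interval 37.5 to 8384), while PEER held 24.8 to 32.5 CPM in all 5 libraries. ANGPT2, an angiopoietin, was the exception in this group: PEER had 2 DMSO reads and none with decitabine, and Loucy went from 3 reads to 6.18, 5.22 and 6.58 CPM (ratio 84.6, interval 28.6 to 413).

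Among myeloid genes, 9 rose in both lines, 5 in PEER alone and 15 in Loucy alone. The list held 75 genes, of which 39 were tested. Of these 14 rose in PEER (35.9%, against 5.51% of all genes tested) and 24 in Loucy (61.5%, against 16.1%). There was 1 fall, in Loucy. The median log2 response of the tested members was 1.31 in PEER and 1.23 in Loucy, against 0.02 and 0.04 over all genes tested. A silent gene passes the filter on low counts only where it turns on, so counts and medians of such lists lean towards rises. The difference was called for 4 members, 2 positive, among them CEBPE, and 2 negative (GFI1 and CD300A).

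The myeloid transcription factors split between the lines. CEBPA, which starts the granulocyte and monocyte programme, was at 0.71 and 0.94 CPM in PEER DMSO and at 22.9, 31.6 and 25.4 CPM with decitabine. In Loucy it had 0 reads in all 3 DMSO libraries and 1.33, 1.19 and 0.88 CPM with decitabine. The rise was called in both lines, 5.01 ± 0.38 on the log2 scale in PEER (adjusted p = 1.2e-07) and at least 16.4-fold in Loucy, and no difference of the rises was called (adjusted p = 0.415). The level under decitabine was higher in PEER by 4.52 ± 0.26 on the log2 scale (adjusted p = 1.8e-11).

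CEBPE, a factor of late granulocyte maturation, moved in opposite directions. It was at 4.43 and 4.67 CPM in PEER DMSO and at 23.8, 19.8 and 17.8 CPM with decitabine. Loucy held 14.8, 16.4 and 13.5 CPM under DMSO and 8.54, 10.1 and 10.9 CPM with decitabine. No libraries overlapped between the treatments of either line. The PEER rise was 2.20 ± 0.25, the Loucy change -0.60 ± 0.16 and the difference 2.80 ± 0.30 on the log2 scale (adjusted p = 3.7e-06), and the Loucy fall was not called without Loucy decitabine replicate 1 or with PEER DMSO replicate 2 (adjusted p = 0.106).

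The promoter windows of CEBPA and CEBPE are shown because both genes encode factors of the C/EBP family and their windows differ in CG content. They are RefSeq windows of 300 bases on GRCh38.p14, from 250 bases before to 50 after the annotated start, read on the gene's strand, with each CG dinucleotide in capitals. The CEBPA window lies at chr19:33302485-33302784 on the minus strand and holds 50 CG, and the CEBPE window at chr14:23119206-23119505 on the minus strand holds 2.
CEBPA: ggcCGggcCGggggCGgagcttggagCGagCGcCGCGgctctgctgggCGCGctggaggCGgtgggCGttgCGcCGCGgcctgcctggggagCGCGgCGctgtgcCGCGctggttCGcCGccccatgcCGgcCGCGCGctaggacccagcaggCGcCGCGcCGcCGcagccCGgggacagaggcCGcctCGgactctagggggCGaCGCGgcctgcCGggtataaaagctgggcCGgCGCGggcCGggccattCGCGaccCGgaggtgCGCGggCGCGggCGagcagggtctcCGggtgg
CEBPE: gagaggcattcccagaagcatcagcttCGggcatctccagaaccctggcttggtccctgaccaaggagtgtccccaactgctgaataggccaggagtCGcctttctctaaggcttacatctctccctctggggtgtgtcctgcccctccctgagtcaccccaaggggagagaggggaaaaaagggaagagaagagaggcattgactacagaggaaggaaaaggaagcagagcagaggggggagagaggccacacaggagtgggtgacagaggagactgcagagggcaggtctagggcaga

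GFI1, a repressor needed for neutrophil and T-cell development, was at 75.8 to 93.2 CPM in all 5 PEER libraries. In Loucy it rose from 12.5, 12.1 and 12.4 CPM to 34.1, 35.3 and 33.1 CPM (difference -1.38 ± 0.18, adjusted p = 3.2e-05). The GFI1 level of Loucy under decitabine remained below that of PEER, with no overlap. SPI1, which encodes PU.1, was called in neither line, at 0 to 0.35 CPM in PEER and 1.67 to 3.98 CPM in Loucy.

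Of 19 granule genes on the list 6 were tested, of which 2 rose in both lines and 3 in Loucy alone. The others had too few reads to be tested. Over all genes tested 5.51% rose in PEER and 16.1% in Loucy. MPO, the myeloperoxidase of neutrophil granules, had 0 reads in PEER DMSO and 5.56, 5.32 and 9.07 CPM with decitabine, at least 20.2-fold higher. In Loucy it rose from 1.16, 1.02 and 1.05 CPM to 19.8, 15.5 and 17.2 CPM (log2 4.01 ± 0.24). HDC, the histidine decarboxylase of mast cells and basophils, had 1 read in PEER DMSO and 2.47, 6.21 and 20.7 CPM with decitabine (ratio 63.8, 95% counting interval 11.2 to 2546), and rose from 8.35, 11.2 and 9.43 CPM to 60.9, 61.1 and 69.1 CPM in Loucy. For both genes all decitabine libraries lay above all DMSO libraries, and no difference was called (adjusted p = 0.123 and 0.329). CTSG, LYZ and CPA3, which encode cathepsin G, lysozyme and a mast-cell carboxypeptidase, rose in Loucy alone by 0.75 to 0.91 on the log2 scale, and none of their differences was called.

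The S100 alarmins S100A8 and S100A9, whose products form calprotectin, rose in PEER. Neither had a read in any PEER DMSO library. With decitabine S100A8 stood at 2.88, 1.48 and 0.73 CPM and S100A9 at 4.01, 5.03 and 1.81 CPM, at least 7.30-fold and 12.7-fold higher. In Loucy S100A8 had 0 reads in all 6 libraries and S100A9 had 2 reads in 1 decitabine library. A difference of ratios has no meaning where a line has no reads, so the levels under decitabine were compared, and both were higher in PEER (adjusted p = 2.6e-05 and 2.1e-06).

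Of 16 surface receptors and adaptors tested, 13 rose in Loucy (81.2%, against 16.1% of all genes tested) and 4 in PEER (25%, against 5.51%). A difference of the responses was called for 1 of them. The 4 shared ones were CD33, a sialic acid-binding inhibitory receptor, ITGAX, the integrin CD11c, FCER1G, an Fc receptor adaptor, and CD300A, an inhibitory receptor. FCER1G was at 0.71 and 1.17 CPM in PEER DMSO and 5.45, 8.58 and 10.2 CPM with decitabine, and went from 7.26, 4.66 and 6.96 CPM to 15.5, 18.4 and 18.5 CPM in Loucy. The rises were 3.02 ± 0.45 and 1.48 ± 0.21 on the log2 scale, and the difference of 1.54 ± 0.54 was not called (adjusted p = 0.117, interval 0.42 to 2.66). CD300A was the member with a called difference: 12.2 and 12.4 CPM to 26.5, 24.8 and 20.3 CPM in PEER, and 0 reads to 1.03, 1.26 and 1.05 CPM in Loucy, at least 16-fold (adjusted p = 0.000617). By level it stayed higher in PEER in every library. The CD33 rise in PEER (1.25 ± 0.37) was kept in 4 of 11 fits that left out 1 library, and was lost, for example, without PEER DMSO replicate 1.

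The 9 surface genes called in Loucy alone included TYROBP, an adaptor of activating receptors, ITGAM, the integrin CD11b, FCER1A, the IgE receptor alpha chain, and the lectins CLEC7A and CLEC12A. TYROBP had reads in 1 Loucy DMSO library (0.37 CPM) and stood at 3.83, 3.11 and 5.00 CPM with decitabine. PEER had none under DMSO and 0.72, 1.77 and 1.09 CPM with decitabine, which missed the threshold (adjusted p = 0.0667). FCER1A and CLEC7A had no read in any PEER library and rose in Loucy by 1.15 ± 0.24 and 1.28 ± 0.29 on the log2 scale. Of the phagocyte effectors, the NADPH oxidase subunit NCF4 rose in both lines, LGALS3 (galectin-3) in PEER, and CST3 and GRN in Loucy.

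**Figure D2:**
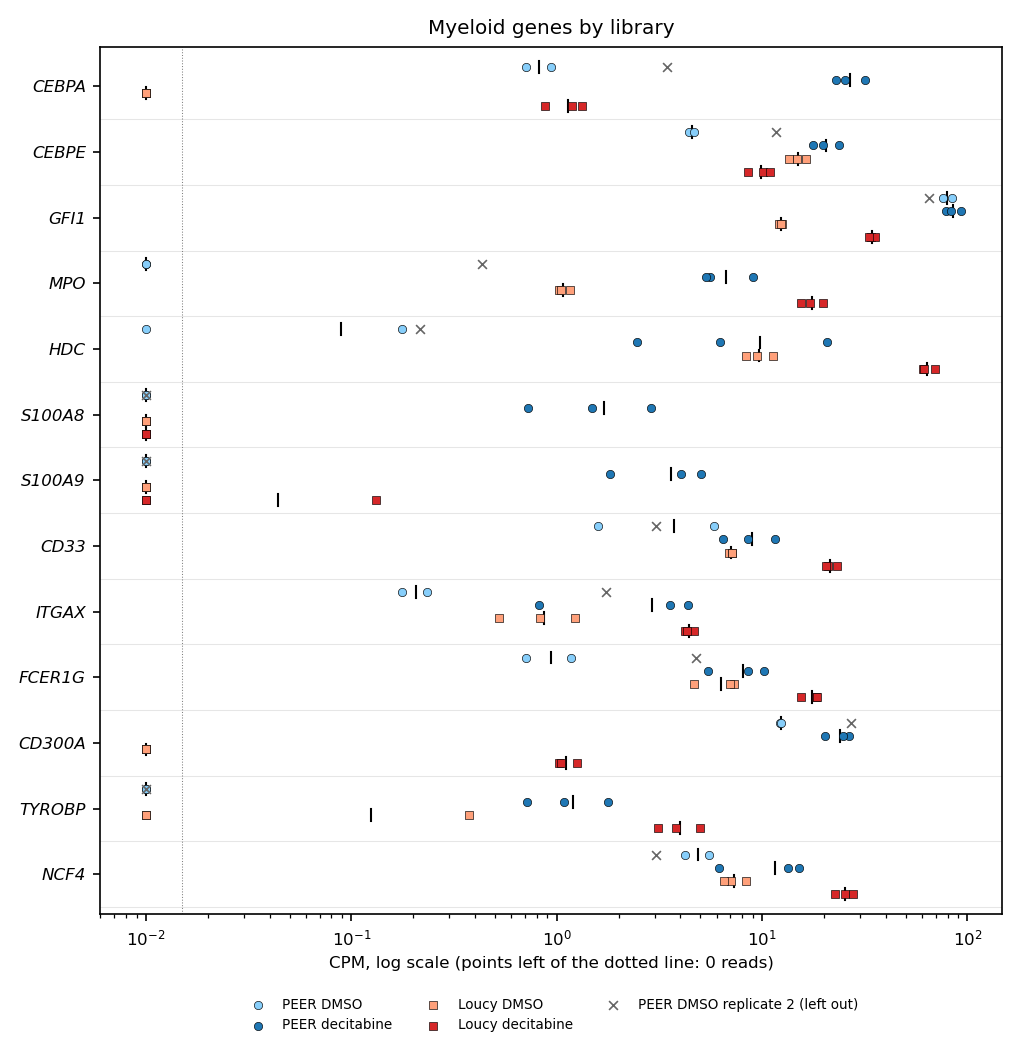
CPM of 13 myeloid genes (log axis, points left of the dotted line have 0 reads) in each library, with circles for PEER, squares for Loucy, pale for DMSO and dark for decitabine, black ticks for group means and grey crosses for the PEER DMSO library left out. CEBPE rises from 4.43 and 4.67 CPM in PEER and falls in Loucy, and S100A8 has reads in the 3 PEER decitabine libraries and in none of the others.

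Of 114 cytokine ligand genes 46 were tested, 9 rose in PEER (19.6%) and 31 in Loucy (67.4%), none fell, and 7 rose in both. Over all genes tested 5.51% rose in PEER and 16.1% in Loucy, so more calls in Loucy than in PEER were not particular to ligands. The shared ligands were TNF, LTB, CD70, TNFSF10 and TNFSF12 of the tumour necrosis factor (TNF) family, the neutrophil attractant CXCL8 and the macrophage growth factor CSF1. IL23A and CXCL6 were called in PEER alone and 24 ligands in Loucy alone. The median log2 response of tested members was 1.07 in PEER and 1.60 in Loucy. Differences were called for 4: positive for CSF1, and negative for LTB, TNFSF14 and XCL1.

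Of 10 TNF family ligands tested 5 rose in PEER and 7 in Loucy, and the 5 PEER rises were all called in Loucy too. Over all genes tested 5.51% rose in PEER and 16.1% in Loucy, and 54.6% of the PEER rises were shared. The PEER rise of CD70 was kept in all 11 fits that left out 1 library. Those of TNF and LTB were kept in 10 of these fits and that of TNFSF12 in 9. TNF was at 0.89 and 1.64 CPM in PEER DMSO and 5.56, 8.58 and 7.98 CPM with decitabine, and went from 0.58, 0.38 and 0.07 CPM to 6.04, 5.42 and 4.91 CPM in Loucy. The rises of 2.52 ± 0.47 and 3.92 ± 0.38 did not differ beyond the threshold (adjusted p = 0.325, interval of the difference -2.84 to 0.04). CD70, the ligand of CD27, rose from 8.86 and 11.7 CPM to 54.0, 46.1 and 57.3 CPM in PEER and from 0.80, 1.34 and 0.45 CPM to 1.62, 1.59 and 2.98 CPM in Loucy, with no called difference of the rises (adjusted p = 0.161). The CD70 level under decitabine was higher in PEER by 4.69 ± 0.25 (adjusted p = 1.1e-12).

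LTB, lymphotoxin beta, rose from 519 and 569 CPM to 1051, 826 and 803 CPM in PEER, and from 58.6, 54.5 and 42.8 CPM to 155, 170 and 183 CPM in Loucy. The log2 rise was larger in Loucy (difference -0.99 ± 0.19, adjusted p = 0.00344), while every PEER library stood above every Loucy library. TNFSF14, also called LIGHT, was called in Loucy alone, from 0.73, 0.77 and 0.45 CPM to 2.50, 2.71 and 4.30 CPM, against 8.68 and 7.71 CPM and then 10.9, 12.4 and 13.1 CPM in PEER (difference -1.70 ± 0.43, adjusted p = 0.024). The TNFSF14 difference was kept in 6 of the 11 fits that left out 1 library. TNFSF10, which encodes TRAIL, rose by 0.71 ± 0.21 in PEER and 0.84 ± 0.19 in Loucy, and the PEER call was kept in 5 of those 11 fits.

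CXCL8 turned on in both lines, and CXCL6, also a neutrophil attractant, rose in PEER. CXCL8 had 0 reads in PEER DMSO and 2.16, 2.37 and 5.44 CPM with decitabine, at least 9.18-fold, and 1 read in Loucy DMSO and 1.69, 1.45 and 1.14 CPM with decitabine (ratio 61.9, 95% counting interval 10.7 to 2485). CXCL6 had 2 reads in PEER DMSO and 2.06, 2.96 and 1.81 CPM with decitabine (ratio 10.95, interval 2.81 to 94.0), and no read in any Loucy library. CSF1 rose from 0.53 and 2.34 CPM to 7.61, 7.98 and 7.62 CPM in PEER and from 11.6, 12.6 and 8.08 CPM to 16.4, 20.5 and 16.4 CPM in Loucy. Its difference (1.81 ± 0.49, adjusted p = 0.0346) was kept in 3 of 11 fits that left out 1 library and lost with PEER DMSO replicate 2 (adjusted p = 0.111).

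Chemokines of the CC and XC families were called in Loucy alone: CCL1, CCL2, CCL3, CCL4, CCL5, XCL1 and XCL2, 7 of 8 tested, against none in PEER. Of all genes tested, 16.1% rose in Loucy and 5.51% in PEER. CCL3 and CCL4 have near-identical copies, and XCL1 and XCL2 are near-identical to each other, so their reads may be shared between copies. CCL5 went from 0.29, 0.06 and 0.30 CPM to 5.45, 4.96 and 5.18 CPM in Loucy, and stood at 0.35 and 0 CPM and then 0.51, 0 and 0.73 CPM in PEER. XCL1 rose from 0.51, 0.38 and 0.22 CPM to 3.75, 2.38 and 2.46 CPM in Loucy and stayed at 1.45 to 2.07 CPM in the 5 PEER libraries (difference -2.85 ± 0.66, adjusted p = 0.0137), a call lost without either PEER DMSO library. It was the CC or XC chemokine with a called difference. CCL2 and CCL4 had no read in PEER, and their levels under decitabine were higher in Loucy (adjusted p = 0.00175 and 9.0e-06).

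Interleukins followed the same pattern, with 9 of 16 tested called in Loucy and 1, IL23A, in PEER. Rises over all genes tested were 16.1% in Loucy and 5.51% in PEER. IL10, an inhibitory cytokine, rose in Loucy from 0.36, 0.19 and 0.15 CPM to 3.83, 4.76 and 4.47 CPM. PEER had 0 reads under DMSO and 0.21, 1.48 and 0.36 CPM with decitabine, a change that was not called (adjusted p = 0.132). IL15, a growth factor of NK and memory T cells, rose from 1.74, 1.28 and 1.95 CPM to 9.72, 6.34 and 7.28 CPM in Loucy, and in PEER went from 0.35 and 0.70 CPM to 0.62, 1.48 and 2.54 CPM (adjusted p = 0.391). IFNG, interferon gamma, had no read except in Loucy with decitabine, at 1.03, 1.12 and 0.26 CPM, at least 12.1-fold higher than DMSO. None of the interleukin and interferon differences was called, and those of IL10, IL15 and IL18 had adjusted p of 0.817, 0.667 and 0.820.

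Of 93 cytokine receptor genes 66 were tested, 11 rose in PEER and 26 in Loucy, 3 fell in Loucy, and 7 rose in both: IL21R, KIT, TNFRSF18, TNFRSF1B, TNFRSF4, CCR10 and CXCR3. The rises were 16.7% and 39.4% of those tested, against 5.51% and 16.1% of all genes, and the Loucy falls 4.55% against 9.41%. Differences were called for 8, positive for TNFRSF1B and IFNAR2 and negative for 6. For IFNAR2, a subunit of the type I interferon receptor, the Loucy response was -0.59 and called, and the PEER response was 0.09 and not called (adjusted p = 0.778). TNFRSF1B, TNF receptor 2, rose from 1.59 and 0.70 CPM to 19.2, 15.7 and 18.1 CPM in PEER, and from 36.7, 36.4 and 35.8 CPM to 106, 92.4 and 112 CPM in Loucy. The log2 rises were 3.88 ± 0.29 and 1.51 ± 0.12 and the difference 2.37 ± 0.35 (adjusted p = 0.000176). PEER with decitabine remained below Loucy without it. The difference was kept in all 11 fits that left out 1 library, but PEER DMSO replicate 2 held 10.8 CPM, and with it the difference was 0.54 (adjusted p = 0.719).

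IL6R, the interleukin-6 receptor, rose in Loucy alone. It went from 5.95, 4.03 and 4.19 CPM to 20.5, 22.5 and 19.4 CPM in Loucy and stood at 7.26 and 8.42 CPM and then 5.56, 7.98 and 9.07 CPM in PEER. Treatments were apart in Loucy and overlapped in PEER, and the difference was -2.28 ± 0.34 (adjusted p = 0.000217), also with PEER DMSO replicate 2 (adjusted p = 0.00466). IL21R rose in both, from 25.7 and 21.5 CPM to 52.2, 46.7 and 60.2 CPM in PEER and from 4.79, 3.58 and 5.76 CPM to 20.2, 22.1 and 23.8 CPM in Loucy, with the larger log2 rise in Loucy (difference -1.07 ± 0.25, adjusted p = 0.0146), a call lost without PEER DMSO replicate 1. KIT, the stem cell factor receptor, rose from 57.0 and 55.9 CPM to 119, 141 and 123 CPM in PEER, while Loucy went from 2 reads to 0.81, 0.86 and 1.40 CPM (ratio 21.3, 95% counting interval 5.53 to 182). The larger log2 change of KIT was thus in the line with the lower level, and its difference (adjusted p = 0.0111) was lost without Loucy DMSO replicate 1.

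The windows of TNFRSF1B, IL6R and CXCL8 show a receptor with the larger rise in PEER, a receptor with the larger rise in Loucy and a ligand that turned on in both. TNFRSF1B and IL6R hold 27 CG each in 300 bases, at chr1:12166741-12167040 and chr1:154405093-154405392, and CXCL8 holds 4 at chr4:73740319-73740618, all on the plus strand.
TNFRSF1B: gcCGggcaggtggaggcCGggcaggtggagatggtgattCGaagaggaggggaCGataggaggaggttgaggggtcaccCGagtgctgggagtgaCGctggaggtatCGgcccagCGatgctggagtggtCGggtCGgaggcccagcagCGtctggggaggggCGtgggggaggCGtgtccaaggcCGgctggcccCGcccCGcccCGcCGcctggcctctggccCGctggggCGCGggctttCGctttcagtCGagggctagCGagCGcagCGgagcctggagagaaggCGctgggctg
IL6R: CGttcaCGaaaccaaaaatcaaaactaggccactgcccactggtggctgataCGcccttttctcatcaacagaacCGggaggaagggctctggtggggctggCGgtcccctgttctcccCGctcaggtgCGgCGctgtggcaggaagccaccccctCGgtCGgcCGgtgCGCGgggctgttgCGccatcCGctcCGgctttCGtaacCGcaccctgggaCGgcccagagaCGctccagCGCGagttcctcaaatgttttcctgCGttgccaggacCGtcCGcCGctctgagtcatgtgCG
CXCL8: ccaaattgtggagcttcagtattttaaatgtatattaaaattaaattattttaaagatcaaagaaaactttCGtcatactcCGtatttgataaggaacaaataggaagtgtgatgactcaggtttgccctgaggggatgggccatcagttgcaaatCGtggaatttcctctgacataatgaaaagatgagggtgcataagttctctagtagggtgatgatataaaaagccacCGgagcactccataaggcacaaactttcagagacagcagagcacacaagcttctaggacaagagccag

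The costimulatory receptors TNFRSF18 and TNFRSF4, also called GITR and OX40, reached similar or unlike levels. TNFRSF18 had 0 reads in PEER DMSO and 5.04, 3.55 and 2.90 CPM with decitabine, at least 14.4-fold, and rose from 0.65, 0.70 and 0.52 CPM to 3.68, 4.30 and 5.09 CPM in Loucy. The decitabine libraries of the lines overlapped, with a level difference of -0.08 ± 0.30 on the log2 scale. TNFRSF4 rose from 2.13 and 3.51 CPM to 5.56, 7.10 and 5.80 CPM in PEER, a call at the threshold (adjusted p = 0.0498) that was kept in 3 of 11 fits that left out 1 library, and from 1.89, 2.36 and 2.10 CPM to 16.6, 11.1 and 13.3 CPM in Loucy. The death receptor FAS and CD27, the receptor of CD70, were called in PEER alone, at log2 changes of 1.33 ± 0.29 and 1.60 ± 0.43 against 0.11 ± 0.21 and 0.32 ± 0.60 in Loucy, and their differences were not called (adjusted p = 0.0518 and 0.445).

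Chemokine receptors rose in 7 of 12 tested in Loucy and in 2 in PEER, CXCR3 and CCR10, where 16.1% and 5.51% of all genes tested rose. CXCR3, a receptor of activated T cells, rose from 0.35 and 2.10 CPM to 4.42, 8.28 and 15.2 CPM in PEER and from 10.6, 12.4 and 12.4 CPM to 24.5, 18.8 and 19.2 CPM in Loucy. The differences of TNFRSF4, TNFRSF21, CCR10 and IFNAR2 were each kept in 2 or 3 of 11 fits that left out 1 library.

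Of 27 signalling genes, all tested, 2 rose in PEER and 6 in Loucy, 3 fell in Loucy, and PIM2, a kinase induced by STAT5, rose in both. These shares (7.41% and 22.2% higher, 11.1% lower in Loucy) lay near those of all genes tested (5.51%, 16.1% and 9.41%). SOCS2, a feedback inhibitor of cytokine receptors, stood at 40.9 to 47.3 CPM in the 5 PEER libraries and rose from 2.32, 3.39 and 1.87 CPM to 7.29, 7.07 and 8.25 CPM in Loucy (difference -1.49 ± 0.27, adjusted p = 0.00145). STAT5A fell in Loucy from 327, 296 and 220 CPM to 141, 180 and 185 CPM and was at 218 to 252 CPM in PEER (difference 0.84 ± 0.20, adjusted p = 0.0177), a call lost without PEER DMSO replicate 1 or 3 or Loucy DMSO replicate 1. The SOCS2 difference was kept in all 11 fits that left out 1 library and with PEER DMSO replicate 2.

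**Figure D3:**
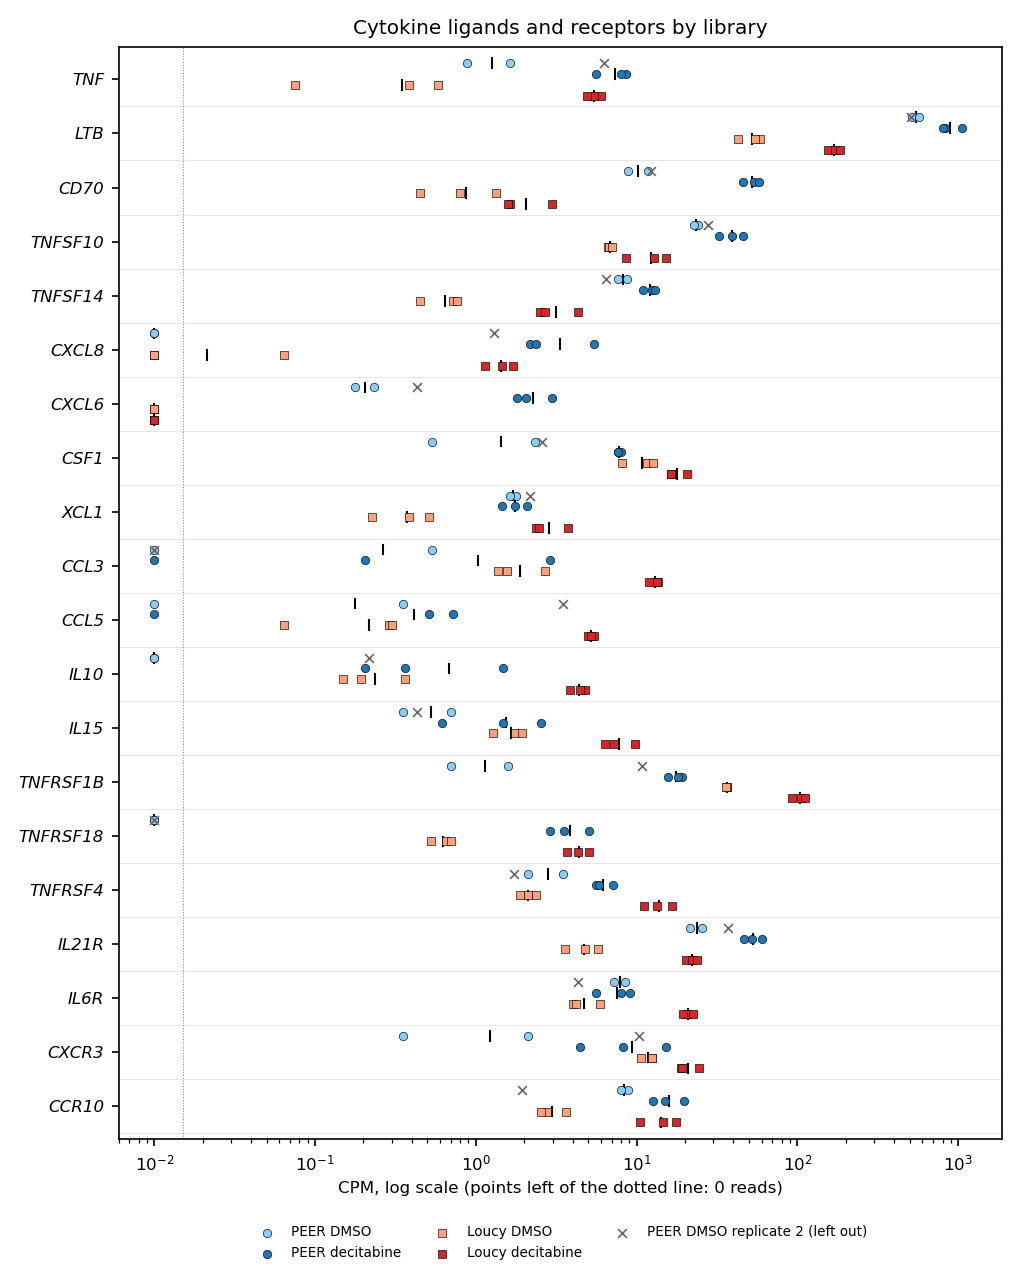
CPM of 20 cytokine ligand and receptor genes (log axis, points left of the dotted line have 0 reads) in each library, with circles for PEER, squares for Loucy, pale for DMSO and dark for decitabine, black ticks for group means and grey crosses for the PEER DMSO library left out. IL6R moves in Loucy alone, from 4.03 to 5.95 CPM up to 19.4 to 22.5 CPM, and LTB is higher in PEER than in Loucy throughout.

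**Figure D4:**
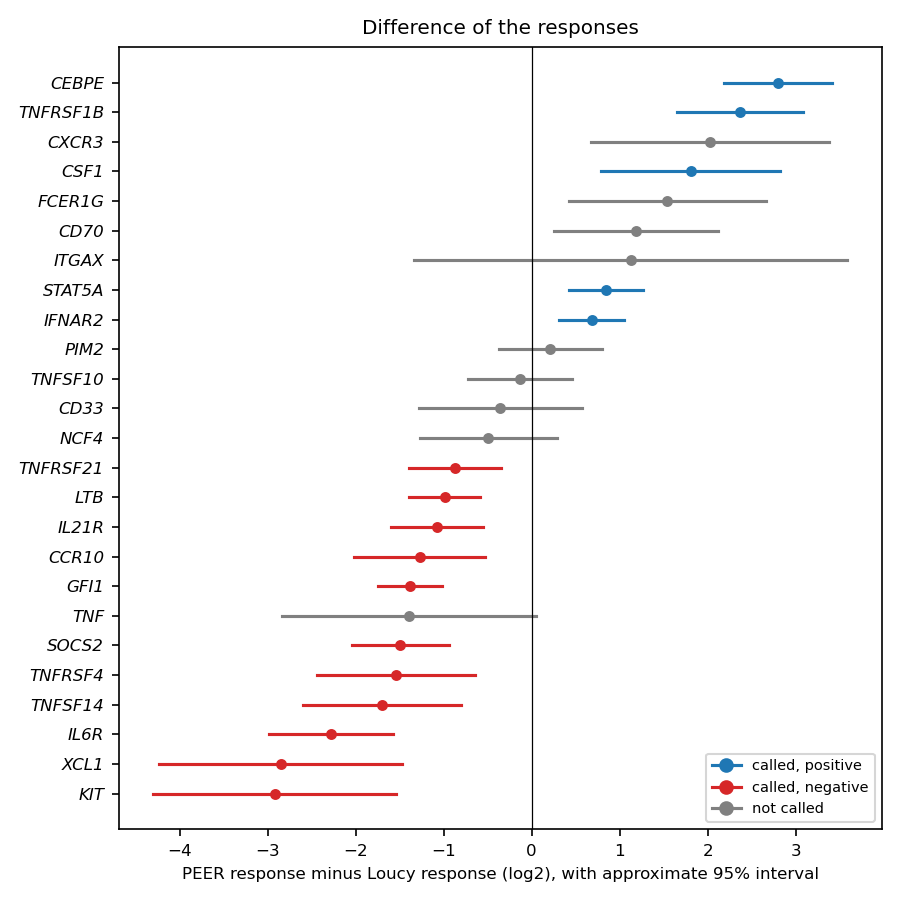
Difference of the responses (PEER minus Loucy, log2) for 25 myeloid and cytokine genes with reads in all 4 groups, with approximate 95% intervals, blue where the difference is called and positive, red where it is called and negative and grey where it is not called. The called values run from -2.92 for KIT to 2.80 for CEBPE.

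Other gene groups showed the same mixture. Of 34 interferon-stimulated genes tested, 4 rose in PEER and 16 in Loucy, 3 in both, with 1 positive and 5 negative differences. These rises were 11.8% and 47.1% of the members, against 5.51% and 16.1% of all genes tested. OAS1, an antiviral enzyme, was at 7.79 and 9.12 CPM and then 7.51, 4.14 and 9.80 CPM in PEER, and rose from 0.44, 0.51 and 0.37 CPM to 2.72, 1.39 and 4.12 CPM in Loucy (difference -2.81 ± 0.58, adjusted p = 0.00591). IFI44L also rose in Loucy (difference -3.86 ± 0.81, adjusted p = 0.00609). Of 17 cancer-testis genes tested 12 rose in each line (70.6%, against 5.51% of all genes in PEER and 16.1% in Loucy) and 9 in both. PRAME rose from 28.5 and 32.0 CPM to 96.6, 95.2 and 75.5 CPM in PEER and from 3 reads to 5.37, 8.26 and 8.69 CPM in Loucy (ratio 106, 95% counting interval 35.8 to 515), so the log2 change was larger in Loucy (adjusted p = 4.3e-06) and the gain in CPM larger in PEER.

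Of 15 NK and cytotoxic genes tested, 7 rose in PEER (46.7%, against 5.51% of all genes), 8 in Loucy (53.3%, against 16.1%) and 4 in both. PRF1, which encodes perforin, had 1 read in PEER DMSO and 0.62, 1.77 and 3.63 CPM with decitabine (ratio 13.8, interval 2.23 to 568), and Loucy held 27.4 to 33.4 CPM in all 6 libraries (difference 3.82 ± 1.06, adjusted p = 0.0404). PEER DMSO replicate 2 held 5.84 CPM of PRF1, and with it the PEER response was -0.38 and the difference -0.26, neither called. Of 28 p53 target genes tested 5 rose in PEER (17.9%, against 5.51% of all genes) and 9 in Loucy (32.1%, against 16.1%). CDKN1A, the p21 cell-cycle inhibitor, rose from 2.30 and 2.34 CPM to 14.8, 18.3 and 21.0 CPM in PEER and from 12.3, 11.6 and 15.6 CPM to 23.6, 24.2 and 22.3 CPM in Loucy (difference 2.08 ± 0.34, adjusted p = 0.000587). The CDKN1A difference was kept in all 11 fits that left out 1 library and lost with PEER DMSO replicate 2 (1.16, adjusted p = 0.21).

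Progenitor and lineage factors differed in both directions. MECOM, a stem cell factor and oncogene, was at 7.62 and 7.71 CPM and then 8.85, 8.58 and 10.9 CPM in PEER, and rose from 0.22, 0.19 and 0.07 CPM to 4.42, 4.76 and 2.81 CPM in Loucy (difference -4.24 ± 0.52, adjusted p = 2.3e-05). LMO2, a T-ALL oncogene, rose in Loucy from 19.7, 19.2 and 13.7 CPM to 36.7, 31.7 and 32.2 CPM and in PEER went from 26.6 and 22.4 CPM to 14.4, 14.5 and 19.2 CPM (difference -1.58 ± 0.25, adjusted p = 0.000515). GFI1B, an erythroid and megakaryocyte repressor, rose from 4.96 and 5.38 CPM to 11.4, 13.3 and 11.97 CPM in PEER and fell from 132, 150 and 138 CPM to 103, 87.1 and 80.1 CPM in Loucy (difference 1.87 ± 0.25, adjusted p = 5.5e-05). Of 33 T-cell identity genes tested 2 rose and 3 fell in PEER, and 7 rose and 10 fell in Loucy. The rises, 6.06% and 21.2%, lay near the shares of all genes tested (5.51% and 16.1%), and the falls were 9.09% and 30.3% against 1.51% and 9.41%. CD4, the T-cell coreceptor, rose in Loucy from 0, 0.13 and 0.15 CPM to 1.10, 1.52 and 2.02 CPM (log2 3.87 ± 0.57), against 3.60 to 5.31 CPM in all PEER libraries.

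No proliferation gene of the lists rose in either line. Of 30 mitosis genes 5 fell in PEER (16.7%, against 1.51% of all genes) and 17 in Loucy (56.7%, against 9.41%), including those 5, 13 were called in neither line, and no difference was called. Of 37 replication genes 1 fell in PEER (2.7%) and 11 in Loucy (29.7%), 26 were called in neither line, and the difference was called for RRM2, a ribonucleotide reductase subunit. Of 15 DNA methylation genes tested 3 fell in Loucy (20%, against 9.41% of all genes). None was called in PEER, where 1.51% of all genes fell, so few falls were to be called in a list of this size. DNMT3B, a de novo methyltransferase, was at 50.1 and 54.9 CPM and then 45.1, 49.4 and 55.1 CPM in PEER and fell from 316, 286 and 255 CPM to 147, 142 and 119 CPM in Loucy (difference 0.98 ± 0.19, adjusted p = 0.00304). The DNMT3B difference was lost with PEER DMSO replicate 2 (adjusted p = 0.115), as was that of RRM2.

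Opposite calls were made for 51 genes (0.323% of genes tested), 28 higher in PEER and lower in Loucy and 23 the other way, and the difference was called for all 51. Both calls of a gene were kept in all 11 fits that left out 1 library for 7 of the 51, without PEER DMSO replicate 1 for 11 and with PEER DMSO replicate 2 for 16. Of the genes described, CEBPE, GFI1B and VPREB1, a surrogate light chain gene, rose in PEER and fell in Loucy, and SESN2, a stress-induced gene, fell in PEER and rose in Loucy. SESN2 was at 225 and 97.9 CPM in the PEER DMSO libraries and 85.9, 73.9 and 74.0 CPM with decitabine, and went from 35.5, 30.03 and 26.9 CPM to 44.0, 46.5 and 49.1 CPM in Loucy (difference -1.64 ± 0.29, adjusted p = 0.00138). The PEER DMSO libraries were far apart for this gene, and both the PEER fall and the difference were lost without replicate 1 and with replicate 2.

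The promoters of shared rises without a called difference and of rises with one had similar CG content. The classes with a called difference also hold rises called in both lines. Over 10419 tested genes with a RefSeq window, the median was 26 CG in 300 bases. It was 22.5 for the 272 genes higher in both lines with no called difference, 25 for 131 PEER rises with a positive difference and 22 for 262 Loucy rises with a negative one. Windows with 10 or more CG made up 86.2% of all, and 76.5%, 74.8% and 74.8% of these classes. Genes under 1 CPM in both DMSO groups (760 windows) had a median of 14.5, and 60.1% had 10 or more CG. The 79 of them higher in both lines had a median of 19, and 69.6% had 10 or more. Tested myeloid genes (27 windows) and cytokine ligands (33 windows) had medians of 4 and 5.

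Motifs were searched by their letters on both strands. TTGCNNCAA was in 1.33% of all windows and in 2.57% of the shared rises without a called difference (7 windows). These letters do not spell the usual site of C/EBP factors. C/EBP sites were thus not searched, and a window without TTGCNNCAA may still hold one. TGANTCA, an AP-1-type motif, was in 4.61% of all windows, 6.62% of the shared rises without a called difference, 3.82% of the PEER class and 6.11% of the Loucy class. Among genes under 1 CPM in both DMSO groups it was in 8.82%. Of the windows printed, CEBPE, IL6R and CXCL8 hold TGANTCA and none holds TTGCNNCAA. These are descriptions of letters in a window.

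**Figure D5:**
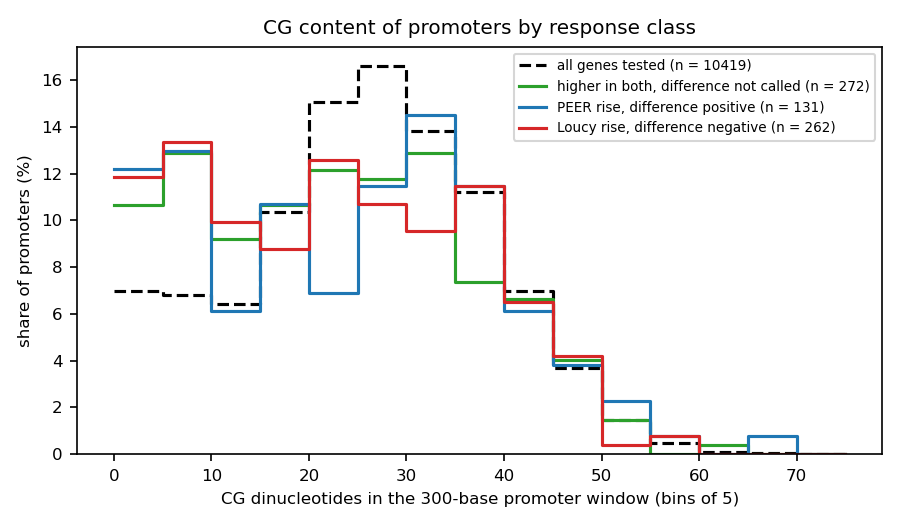
Share of promoter windows (y axis, %) by number of CG dinucleotides in 300 bases (x axis, bins of 5) for all 10419 tested genes with a window (dashed), 272 rises shared without a called difference (green), 131 PEER rises with a positive difference (blue) and 262 Loucy rises with a negative difference (red). The 3 classes have more windows under 10 CG than all genes and lie close to each other.

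With PEER DMSO replicate 2 in the fit, fewer shared myeloid and cytokine rises were called. Shared myeloid rises went from 9 to 7, without ITGAX and CD300A, and shared cytokine ligands from 7 to 5, without TNF (PEER response 1.31, adjusted p = 0.152) and TNFSF10. CXCR3 was lost from the shared receptors. Of the 36 PEER responses called in the myeloid, ligand, receptor and signalling lists, 28 were kept and 7 lost, and S100A8 was not tested. In every fit that left out 1 library 9 of these 36 PEER responses were kept, against 77 of the 92 Loucy responses called in the same lists, so which of these genes count as shared or as called in Loucy alone depends on single PEER libraries. Of the 19 differences called in these lists 13 were kept and 6 lost, among them CSF1, TNFRSF1B, TNFRSF4, TNFRSF21 and CCR10. Over all genes the positive differences went from 338 to 174, of which 164 were among the 338, and the negative ones from 410 to 333, of which 299 were among the 410.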

How the data were processed

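RNA of PEER and Loucy cells was sequenced as 3′-end libraries (QuantSeq FWD, per the labels' protocols). The deposited files hold raw counts of reads per gene and library, made with STAR 2.4.2a on GRCh38/hg38 per the submitters' processing notes, while no label or header names the annotation release. The counts on the gene's strand were used. Gene symbols came from GENCODE 29, which matched 56996 of 60554 identifiers.

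Genes passing filterByExpr (minimum count 10), 15801, were fitted in edgeR 4.0.16 (R 4.3.3, limma 3.58.1) with TMM scaling and 1 mean per group over 11 libraries, with 7 residual degrees of freedom. The PEER response, the Loucy response, their difference and the difference of the decitabine levels were tested by the quasi-likelihood test with Benjamini-Hochberg adjustment over all genes tested, at 0.05. The SE is the log2 change over the root of F, and is not given where a group has 0 reads. Where a DMSO group had 0 reads, the fold is a lower bound against 3 counts over the group, and with 1 to 3 reads a ratio with its 95% counting interval. These intervals cover counting error only. For these genes a fitted log2 value moves with the prior count.

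The members and the 18 lists were chosen with earlier results of these data known. Named genes were the 10 largest called differences in each direction among genes of at least 5 CPM in a group, the 10 strongest shared rises and 5 strongest shared falls by the smaller of both changes with at least 5 CPM and no overlap of libraries, called members of the myeloid and cytokine lists, and up to 4 called members of each other list. SPI1, SESN2 and genes in the closing section outside these were chosen after their values were seen. The labels do not say whether replicates were separate cultures, so p-values measure the spread between these libraries, which may be technical. No libraries were duplicates. A few genes that these rules select are not reported here. The script was tested on simulated data. Alternatives were PEER DMSO replicate 2 included, 27 or 30 libraries, other scalings, DESeq2 1.42.0, no filter, unstranded counts, Loucy thinned, a replicate block, and each library left out.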

Additional observations from a re-analysis of the deposited data

Results flagged for a closer look

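For 50 genes named above, the decitabine response differed between PEER and Loucy by a test of the difference itself (edgeR's quasi-likelihood test, adjusted over all genes). All values are differences on the log2 scale, PEER minus Loucy.

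Genes without a read in PEER DMSO, for which the fitted value depends on the prior count, were FAM131B (7.59), KCNQ1 (7.44), GRAMD2A (6.81), OXT (6.72), NNMT (6.58), EPHB1 (6.55), HES7 (6.55), CLDN5 (6.51), ZBTB46 (5.96) and ARHGEF40 (5.91). Genes with at most 3 reads in Loucy DMSO, for which the same holds, were ANGPT2 (-10.26), EGFL7 (-8.70), DDIT4L (-7.27), RUNX1T1 (-7.17), FBLN2 (-6.91), NFIA (-6.89), TNS4 (-6.59), PRDM8 (-6.41), KCNK17 (-6.41), TRH (-4.04), CD300A (-5.51), KIT (-2.92) and PRAME (-4.92). For ANGPT2 the Loucy response was 6.18, and PEER had no read with decitabine, so its value depends on the prior count in both lines. The ANGPT2 difference was lost without PEER DMSO replicate 1.

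Among myeloid genes and cytokine ligands the values were 2.80 for CEBPE, -1.38 for GFI1, 1.81 for CSF1, -0.99 for LTB, -1.70 for TNFSF14 and -2.85 for XCL1. Among receptors they were 2.37 for TNFRSF1B, 0.68 for IFNAR2, -2.28 for IL6R, -1.07 for IL21R, -1.55 for TNFRSF4, -0.88 for TNFRSF21 and -1.28 for CCR10. The signalling genes STAT5A and SOCS2 had 0.84 and -1.49.

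In the other groups the values were 3.82 for PRF1, -4.15 for CD4, 2.69 for VPREB1, 1.87 for GFI1B, -4.24 for MECOM, -1.58 for LMO2, -3.86 for IFI44L, -2.81 for OAS1, 2.08 for CDKN1A, -1.64 for SESN2, 0.66 for RRM2 and 0.98 for DNMT3B. The value of PRF1, which had few reads in PEER DMSO, also depends on the prior count, and its sign reversed with PEER DMSO replicate 2. Of the 50 differences 24 were kept in all 11 fits that left out 1 library, and 34 were kept with PEER DMSO replicate 2.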

How the results depend on the processing

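With PEER DMSO replicate 2 in the fit, 823 genes fell in Loucy, 174 differences were positive and 77 falls were shared. In a fit of 27 libraries of all 5 lines, 141 genes fell in PEER and 60 falls were shared. With all 30 libraries, 534 genes rose and 145 fell in PEER, 1595 rose and 623 fell in Loucy, 118 differences were positive, and 260 rises, 44 falls, 3 myeloid rises and 2 ligand rises were shared. Scaling by total counts alone moved the median response of all genes to 0.11 in PEER and 0.16 in Loucy on the log2 scale, and left 117 falls in PEER, 716 in Loucy and 41 shared. Among genes with more than 3 reads in the DMSO group of each line, an alternative chosen after seeing the data, 295 rises were shared. PRF1 reversed with PEER DMSO replicate 2 and with 30 libraries, with PEER responses of -0.38 and -0.38 and differences of -0.26 and -0.27. The cause of these shifts was not tested. Counts under DESeq2, RLE scaling and no filter stayed within 1.5 times of the reported ones.

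Same-numbered libraries did not deviate together (r of -0.03 and -0.03 in PEER, and 0.11, 0.01 and -0.08 in Loucy). This check cannot exclude pairing, because the deviations of the 2 PEER DMSO libraries from their mean mirror each other. The labels do not say whether the numbers pair the samples. With the replicate number as a block, 90 genes fell in PEER and 30 falls were shared.

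Leaving out each library in turn gave 265 to 1015 rises and 23 to 389 falls in PEER, 2002 to 2608 rises and 941 to 1667 falls in Loucy, 96 to 385 positive and 188 to 415 negative differences. Shared rises ran from 171 to 487, shared falls from 12 to 179, shared myeloid rises from 3 to 10 and shared ligand rises from 1 to 8. Without PEER DMSO replicate 1, 93 of the 338 positive differences and 170 of the 475 shared rises were still called, and without replicate 3 157 and 234. Each of these fits leaves 1 PEER DMSO library, which is assumed to vary like the other groups. Of the 19 differences called in the myeloid and cytokine lists, 8 were kept in all 11 of these fits.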

Other observations

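Of the 51 opposite calls, 5 further genes are described here, chosen after their values were seen, and they stand for no theme among the 51. CHAC1, a glutathione-degrading enzyme, was at 92.1 and 34.4 CPM in PEER DMSO and 17.4, 19.5 and 17.8 CPM with decitabine, and in Loucy at 0.22, 0.19 and 0 CPM and then 0.96, 0.66 and 0.61 CPM. DDIT4, an inhibitor of mTORC1 signalling, was at 376 and 220 CPM and then 132, 109 and 136 CPM in PEER, and at 83.2, 73.3 and 58.9 CPM and then 127, 124 and 120 CPM in Loucy. SLC7A11, the cystine transporter, was at 96.4 and 45.8 CPM and then 38.1, 36.1 and 29.8 CPM in PEER, and at 24.1, 25.5 and 19.2 CPM and then 44.1, 34.7 and 38.7 CPM in Loucy. All 3 had a called difference, of -4.13 ± 0.79, -2.03 ± 0.24 and -1.80 ± 0.29 on the log2 scale (SE, edgeR's adjusted p = 0.0028, 1.2e-05 and 0.000571). In each, PEER DMSO replicate 1 stood above replicate 3. The third PEER DMSO library, replicate 2, which is mixed with another line, held 15.8 CPM of CHAC1, 131 CPM of DDIT4 and 33.7 CPM of SLC7A11, below or within the range of the decitabine libraries. Without PEER DMSO replicate 1 the PEER falls of CHAC1 and SLC7A11 were lost (-0.91 and -0.38, adjusted p = 0.136 and 0.516) and that of DDIT4 was kept (-0.80, adjusted p = 0.0282). The differences of all 3 were kept in all 11 fits that left out 1 library, and with PEER DMSO replicate 2 that of CHAC1 was lost (adjusted p = 0.0961). The Loucy rise of CHAC1 was kept in 8 of those 11 fits. With PEER DMSO replicate 2 the PEER falls of CHAC1 and SLC7A11 were lost (adjusted p = 0.0662 and 0.133). Their Loucy rises were lost there too (adjusted p = 0.158 and 0.0544), while DDIT4 kept both calls.

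In the other direction, PTPRC, which encodes the leukocyte antigen CD45, was at 113 and 138 CPM and then 201, 167 and 194 CPM in PEER and at 523, 444 and 464 CPM and then 351, 397 and 396 CPM in Loucy. SLA, an adaptor that lowers T-cell receptor levels, was at 34.7 and 58.0 CPM and then 130, 118 and 141 CPM in PEER and at 345, 401 and 330 CPM and then 199, 252 and 181 CPM in Loucy. Among the libraries of the main comparison the treatments did not overlap in either line for both genes, and the level of PEER under decitabine stayed below that of Loucy. PEER DMSO replicate 2 held 202 CPM of PTPRC, above all 3 PEER decitabine libraries, and 102 CPM of SLA, below them. The PTPRC difference was lost with that library (adjusted p = 0.184) and without PEER DMSO replicate 1, where it was 0.795. With PEER DMSO replicate 2 the PEER rise and the Loucy fall of PTPRC were also lost (adjusted p = 0.315 and 0.207). The SLA calls in both lines and its difference were kept in all 11 fits that left out 1 library and with PEER DMSO replicate 2.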
